A study of Mus musculus with 8 samples.

Results

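The 10 myeloid C-type lectin genes Clec4a1, Clec4a2, Clec4a3, Clec4b1, Clec4n, Clec4d, Clec4e, Clec7a, Clec12a and Clec10a were followed in dendritic cells of the mouse thymus. They are called members below, and their probes were those whose accession maps to their symbols, among 37208 genes or accessions on the array. Probes were matched for 9 of the 10, and Clec7a is not analysed here. Of these 9, 7 exceeded background on the 2 arrays of 1 or more groups (the scanner's well-above-background mark) and were tested, among 24133 genes tested. The probes of Clec4a2 and Clec12a did not pass that filter.

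Sorting for the surface receptor Sirpa and for maturation status gave Sirpa-positive mature (replicates 1 and 6), Sirpa-positive immature (replicates 3 and 5), Sirpa-negative mature (replicates 2 and 8) and Sirpa-negative immature cells (replicates 4 and 7), with 2 one-colour arrays a group, all on 1 slide. The labels name no treatment, strain, age or further sort marker, and do not tell whether the 2 arrays of a group are different mice or sorts, so the p-values reflect array-to-array spread that may be technical. The study's title concerns CD40, dendritic cell maturation and regulatory T cells. As a check of the labels, Sirpa RNA differed 114-fold between subsets in immature and 28.3-fold in mature cells, higher where the sort was positive. Ccr7, a homing receptor of mature dendritic cells, gained 71.7-fold with maturation in Sirpa-positive and 51.5-fold in Sirpa-negative cells. Of 12 dendritic cell markers, between 11 and 12 were well above background on every array. Levels below are log2 of the background-subtracted signal relative to the array's 75th percentile, so 0 is that percentile and a difference of 1 is a doubling of the signal.

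C-type lectin receptors bind sugars and other ligands on microbes and on dying cells. Most of the genes described here lie in 2 clusters on mouse chromosome 6, which hold genes of activating and of inhibitory receptors. Clec4n (Dectin-2), Clec4d (Mcl), Clec4e (Mincle) and Clec4b1 (Dcar) encode receptors that activate cells through the Fc receptor gamma chain, the kinase Syk and the adaptor Card9, whereas Clec4a2 (Dcir) and Clec12a encode receptors that recruit the phosphatase Ptpn6. Clec4a1 and Clec4a3 are close relatives of Clec4a2, Clec7a (Dectin-1) encodes the receptor for fungal beta-glucans, and Clec10a (Mgl1), on chromosome 11, encodes an endocytic receptor for galactose-type sugars.

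Promoter windows are shown for 5 tested members of the chromosome 6 cluster and for the neighbouring gene Clec4b2, whose subset difference ran the other way. Each is 250 bases before to 50 bases after an annotated start (RefSeq, GRCm38.p6), read 5′ to 3′ on the gene's strand, with GAGGAA or its reverse complement TTCCTC, the core that the myeloid factor PU.1 is known to bind, in capitals.
Clec4a1, chr6:122921598-122921897, plus strand: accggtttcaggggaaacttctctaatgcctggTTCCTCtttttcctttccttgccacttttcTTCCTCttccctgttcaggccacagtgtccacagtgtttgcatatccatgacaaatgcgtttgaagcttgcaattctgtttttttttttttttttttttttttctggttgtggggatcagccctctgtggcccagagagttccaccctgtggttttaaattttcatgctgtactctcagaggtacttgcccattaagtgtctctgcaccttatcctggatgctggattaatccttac
Clec4a3, chr6:122952394-122952693, plus strand: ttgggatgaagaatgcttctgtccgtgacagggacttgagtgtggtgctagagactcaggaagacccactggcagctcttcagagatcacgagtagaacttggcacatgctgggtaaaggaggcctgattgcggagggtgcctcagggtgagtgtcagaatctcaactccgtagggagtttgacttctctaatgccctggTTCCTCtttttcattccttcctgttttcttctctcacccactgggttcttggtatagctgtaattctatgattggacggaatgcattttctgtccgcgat
Clec4b1, chr6:123049712-123050011, plus strand: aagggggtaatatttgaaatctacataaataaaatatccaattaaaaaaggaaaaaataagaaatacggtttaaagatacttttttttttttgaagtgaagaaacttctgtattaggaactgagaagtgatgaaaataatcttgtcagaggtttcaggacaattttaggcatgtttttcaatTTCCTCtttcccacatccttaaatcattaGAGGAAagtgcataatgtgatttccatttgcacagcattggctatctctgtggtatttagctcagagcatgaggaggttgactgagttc
Clec4b2, chr6:123172773-123173072, plus strand: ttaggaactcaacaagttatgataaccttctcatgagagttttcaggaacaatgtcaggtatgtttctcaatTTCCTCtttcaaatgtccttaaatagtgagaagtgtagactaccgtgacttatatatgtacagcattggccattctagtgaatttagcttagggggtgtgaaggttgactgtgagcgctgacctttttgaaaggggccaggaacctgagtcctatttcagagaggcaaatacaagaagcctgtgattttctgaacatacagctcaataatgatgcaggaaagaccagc
Clec4d, chr6:123261857-123262156, plus strand: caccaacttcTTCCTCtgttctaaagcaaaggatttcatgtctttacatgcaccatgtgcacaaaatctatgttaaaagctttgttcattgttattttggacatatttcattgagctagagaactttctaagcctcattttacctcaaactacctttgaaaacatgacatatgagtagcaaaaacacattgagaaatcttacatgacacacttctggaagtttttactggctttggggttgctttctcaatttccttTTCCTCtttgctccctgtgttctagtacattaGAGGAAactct
Clec4e, chr6:123289822-123290121, minus strand: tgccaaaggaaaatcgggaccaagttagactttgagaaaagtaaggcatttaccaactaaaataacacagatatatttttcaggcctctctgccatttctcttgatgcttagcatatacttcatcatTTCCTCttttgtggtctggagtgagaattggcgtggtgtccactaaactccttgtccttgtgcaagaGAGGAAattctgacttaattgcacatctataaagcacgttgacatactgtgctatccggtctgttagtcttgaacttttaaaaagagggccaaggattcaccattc
A window was found for 8 of the 10 members, 10 windows in all. GAGGAA on either strand stood in 8 of the 10 windows, against 28.3% of the 32851 promoters searched. These windows belong to 7 of the 8 members, of which Clec7a and Clec12a were not tested. The 2 Clec7a windows overlap and hold the same match, which was counted in both. The Clec4a2 window and the other Clec4a3 window, neither shown, held no match. Member counts here pool all windows of a gene, while the shares are per promoter. Clec4a1 and Clec4a3 share the run cctggTTCCTCtttttc (17 bases), and Clec4b1 and Clec4b2 share tcaatTTCCTCtttc (15 bases). The run shared by Clec4b1 and Clec4b2 is thus common to 2 genes with opposite subset patterns. A C/EBP pattern (TTGCNNAA) was found for 2 of the 8 members and in 10.8% of promoters, an AP-1 pattern (TGANTCA) for 2 and in 7.81%, an interferon response element pattern for 2 and in 3.44%, and a kappa B pattern for 0 and in 0.411%. Both strands were searched, and both interferon pattern matches overlap a GAGGAA match. A match describes the letters only.

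Clec4a1, Clec4a3, Clec4n and Clec4d were well above background on the 4 Sirpa-positive arrays and on none (0) of the 4 Sirpa-negative arrays. Clec4e was above background on both Sirpa-positive mature arrays and 1 of 2 Sirpa-positive immature arrays, and on 0 Sirpa-negative arrays. Clec10a and the brighter of 2 Clec4b1 probes were above background on all 8 arrays. Clec4a2 was above background on 0 of 8 arrays, with log2 levels between -6.63 and -3.73. Clec12a was above background on 1 of 8 arrays, Sirpa-negative immature replicate 7, with levels between -6.65 and -4.00. A probe not well above background gives a bound on the level, not a value of 0. Since 5 of the 7 tested members passed the filter through Sirpa-positive groups alone, they had to differ between subsets, and the counts below describe them.

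**Figure D1:**
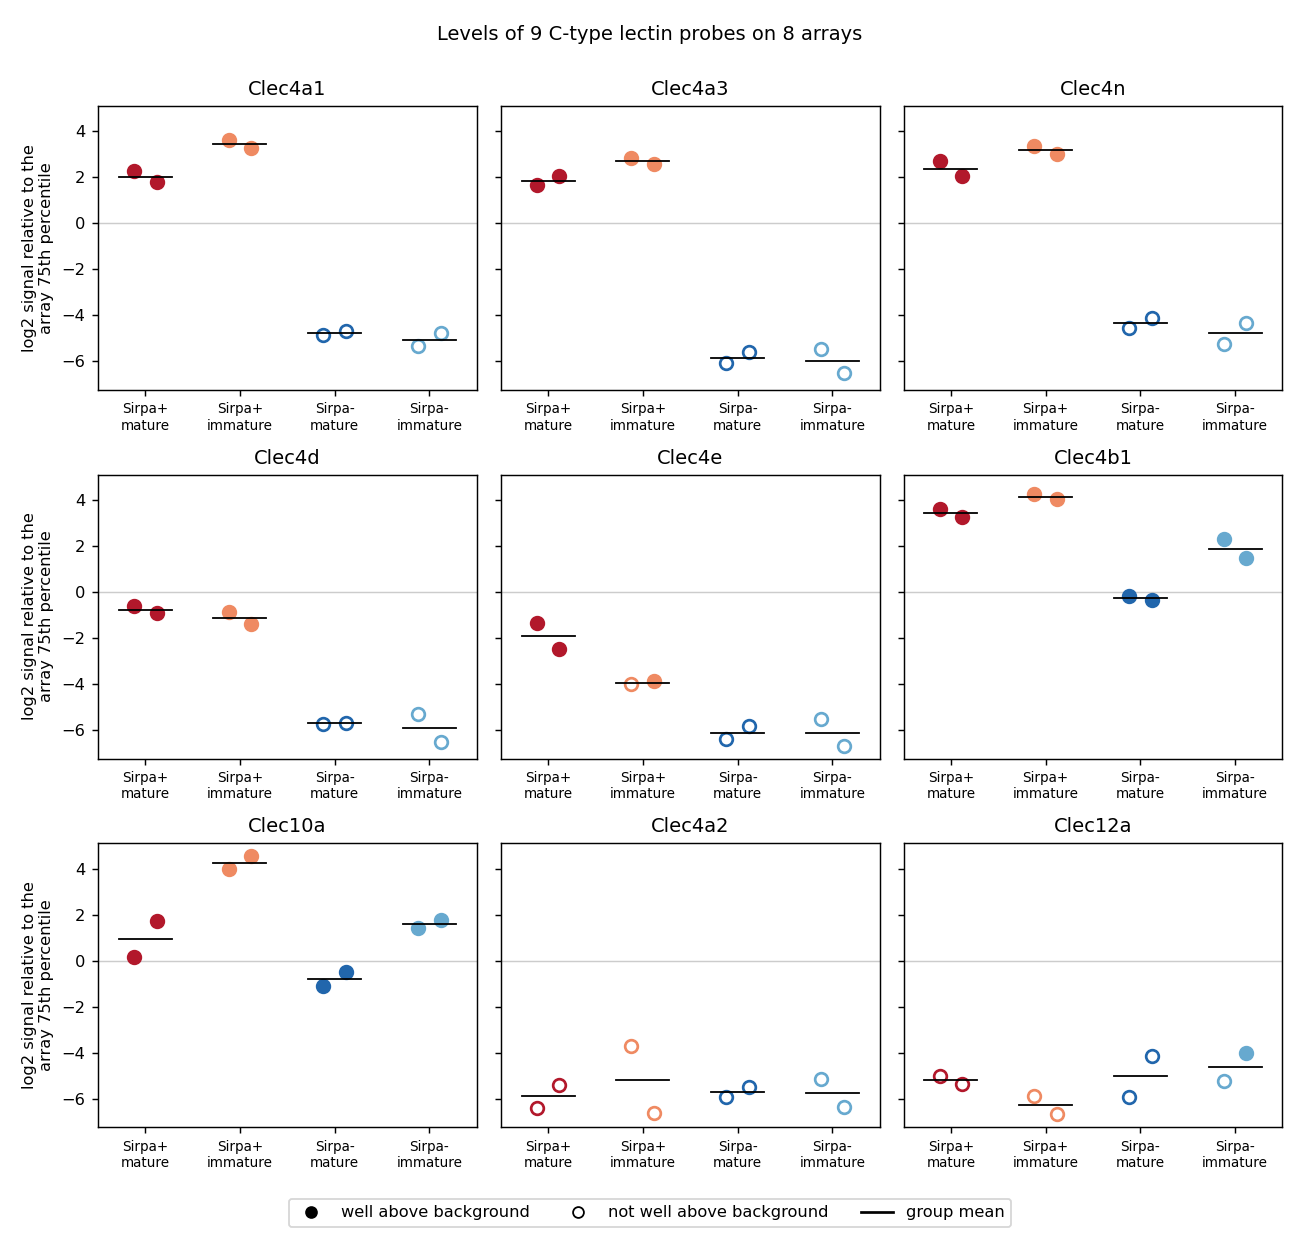
Log2 signal relative to the array's 75th percentile (y axis) of 9 lectin genes on each of the 8 arrays, by group (x axis; + and - mark Sirpa). Filled points were well above background, hollow points were not, and lines are group means of 2 arrays. In 5 panels, Clec4a1 to Clec4e, filled points occur in Sirpa-positive groups only, while Clec4b1 and Clec10a are filled throughout. Clec4a2 has no filled point and Clec12a has 1.

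The subset comparison asks which lectins differ between Sirpa-positive and Sirpa-negative cells of the same maturation. In immature cells, 7 of 7 tested members were higher in Sirpa-positive cells, against 7.24% of all genes tested called higher (limma, Benjamini-Hochberg adjusted p under 0.05), and 0 were lower, against 4.4%. In mature cells 6 of 7 were higher, against 3.38% of all genes, and 0 lower, against 2.1%. Arrays of the 2 subsets did not overlap for 7 of 7 members in either comparison, as for 59.2% of all genes in immature and 40.8% in mature cells. The median difference of the 7 was 4.80 in immature and 4.95 in mature cells on the log2 scale, beside -0.11 and -0.07 over all genes. Within each of the 2 slide rows, 7 of 7 members were higher in the Sirpa-positive array in both comparisons. Clec4a1, Clec4a3, Clec4n, Clec4d and Clec4e passed the filter through Sirpa-positive groups alone, which set their direction. For them these counts, medians and signs are a description and no test. Only Clec4b1 and Clec10a, above background on all arrays, were free to go either way.

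Among the relatives of Dcir, Clec4a1 stood at 2.25 and 1.80 in Sirpa-positive mature and 3.60 and 3.25 in Sirpa-positive immature cells, against -4.86 and -4.71 in Sirpa-negative mature and -5.34 and -4.78 in Sirpa-negative immature cells. The Sirpa-positive arrays lay far above the Sirpa-negative ones, by at least 158-fold in immature cells (log2 difference 8.49 ± 0.28, SE; limma adjusted p = 2.27e-05) and at least 59.1-fold in mature cells (6.81 ± 0.28; limma adjusted p = 8.06e-05). Here and below, such folds are set against the dim arrays' detection floor (their weakest well-above-background probe) or the probe's own signal, whichever is higher. They are lower bounds under the main processing only. In immature cells the log2 difference of Clec4a1 was 5.86 with the authors' deposited values and 5.06 with normexp and quantile normalization. That of Clec4d was 2.00 and 1.43 in immature cells, and that of Clec4e 1.68 and 1.11 in mature cells. Nor is the floor strict, as Clec4a2 read -3.73 without the mark on an array with a floor of -3.97. Clec4a3 read 1.66 and 2.04 in Sirpa-positive mature and 2.82 and 2.57 in Sirpa-positive immature cells, against -6.09 and -5.60 in Sirpa-negative mature and -5.47 and -6.52 in Sirpa-negative immature cells. It was at least 95.4-fold higher in Sirpa-positive immature cells and at least 52.3-fold higher in Sirpa-positive mature cells (limma adjusted p = 3.36e-05 and 9.52e-05).

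Of the activating receptors, Clec4n, which encodes the receptor for fungal mannans, read 2.69 and 2.04 in Sirpa-positive mature and 3.33 and 2.99 in Sirpa-positive immature cells, against -4.55 and -4.14 in Sirpa-negative mature and -5.25 and -4.34 in Sirpa-negative immature cells. It was at least 126-fold higher in Sirpa-positive immature cells and at least 74.9-fold higher in Sirpa-positive mature cells (limma adjusted p = 4.34e-05 and 0.000136). Its neighbour Clec4d, whose product pairs with Mincle, read -0.60 and -0.93 in Sirpa-positive mature and -0.86 and -1.38 in Sirpa-positive immature cells, against -5.73 and -5.70 in Sirpa-negative mature and -5.30 and -6.53 in Sirpa-negative immature cells. The 2 Sirpa-positive groups overlapped for Clec4d, and both lay above the Sirpa-negative arrays, by at least 6.78-fold in immature and at least 8.53-fold in mature cells (limma adjusted p = 0.000417 and 0.000709).

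Clec4e, which encodes Mincle, the receptor for the mycobacterial cord factor, read -1.33 and -2.50 in Sirpa-positive mature and -4.02 and -3.89 in Sirpa-positive immature cells, against -6.39 and -5.85 in Sirpa-negative mature and -5.55 and -6.69 in Sirpa-negative immature cells. In mature cells it was at least 3.85-fold higher in the Sirpa-positive subset (limma adjusted p = 0.00304). In immature cells the log2 difference was 2.16 ± 0.48 (limma adjusted p = 0.0295) and allows no fold, because the Sirpa-positive mean did not exceed the background bound of the Sirpa-negative arrays. That call ended without Sirpa-positive immature replicate 3 or 5 or Sirpa-negative immature replicate 7 (limma adjusted p = 0.139, 0.131 and 0.122), with normexp and quantile normalization (0.171), and it passed in 12 of 19 alternatives.

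Clec4b1 read 3.58 and 3.27 in Sirpa-positive mature and 4.24 and 4.03 in Sirpa-positive immature cells, against -0.19 and -0.36 in Sirpa-negative mature and 2.28 and 1.48 in Sirpa-negative immature cells. It differed 4.77-fold between subsets in immature cells (log2 2.26 ± 0.30; limma adjusted p = 0.00293) and in mature cells by 3.70 ± 0.30 on the log2 scale (limma adjusted p = 0.000666). The galactose receptor gene Clec10a read 0.17 and 1.70 in Sirpa-positive mature and 3.98 and 4.54 in Sirpa-positive immature cells, against -1.09 and -0.49 in Sirpa-negative mature and 1.41 and 1.78 in Sirpa-negative immature cells. It was 6.34-fold higher in Sirpa-positive immature cells (2.67 ± 0.50; limma adjusted p = 0.0140), a call that ended without Sirpa-positive immature replicate 3 or 5 or Sirpa-negative immature replicate 4 (adjusted p between 0.0565 and 0.0887). In mature cells its difference of 1.73 ± 0.50 did not pass (limma adjusted p = 0.113). The 2 Sirpa-positive mature arrays differed from each other by more than any other pair of a group for this gene, and the difference was 2.50 without replicate 1 (limma adjusted p = 0.0278) and 0.97 without replicate 6 (0.328). It passed in 5 of 20 alternatives.

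Markers of macrophages moved with the subset difference. Of 16 macrophage markers listed, 14 were tested, of which 14 were higher in Sirpa-positive immature cells and 9 in Sirpa-positive mature cells. Over all genes tested, 7.24% in immature and 3.38% in mature cells were called higher, and 4.4% and 2.1% lower. Their summed signal, in units of the array's 75th percentile, was 656 to 680 on Sirpa-positive mature and 744 to 1062 on Sirpa-positive immature arrays, against 8.87 to 10.8 on Sirpa-negative mature and 4.17 to 4.90 on Sirpa-negative immature arrays. Vsig4 was above background on 0 arrays and Cd68 was not matched. On Sirpa-negative immature arrays 9 to 11 of the 14 macrophage markers were above background, and on Sirpa-negative mature arrays 10 to 12. For any marker kept through Sirpa-positive groups alone the filter set the direction, so these counts are a description. Of 13 markers of Sirpa-expressing (type 2) dendritic cells, 11 were higher in Sirpa-positive immature and 6 in Sirpa-positive mature cells, and 0 lower in either. Sirpa, the sort marker, is among the 13 and was higher in both, which the sort itself set. Of 11 tested type 1 dendritic cell markers, 11 were lower in Sirpa-positive immature and 9 in Sirpa-positive mature cells, and 0 higher in either. Of 11 tested monocyte and neutrophil markers, 5 and 3 were higher and 0 lower, while their summed signal overlapped between the subsets, with 130 to 190 on Sirpa-positive mature and 152 to 176 on Sirpa-positive immature, against 134 to 155 on Sirpa-negative mature and 149 to 183 on Sirpa-negative immature arrays. The part of these markers in the lectin differences was not tested, and in RNA from pooled sorted cells, fewer cells of a type and less RNA per cell cannot be told apart.

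Maturation was then compared within each subset. In Sirpa-positive cells, 2 of 7 members fell with maturation, against 2.54% of all genes tested called lower, and 0 rose, against 4.35%. Clec10a was lower in mature cells by the most (log2 -3.32 ± 0.50; limma adjusted p = 0.0117) and Clec4a1 was 2.64-fold lower (-1.40 ± 0.28; limma adjusted p = 0.0289). Each call depended on which arrays entered. The Clec10a call ended without Sirpa-positive immature replicate 3 or 5 (limma adjusted p = 0.0546 and 0.0837), and the Clec4a1 call ended without any 1 of the 4 Sirpa-positive arrays (0.0543 to 0.174) with slide row as a block (0.0557), with quantile normalization (0.152) and without a filter on dim probes (0.114). Without that filter, the Clec10a calls in this comparison, in Sirpa-negative maturation and between immature subsets ended too (0.0566, 0.0681 and 0.0546). Each of the 2 slide rows held 1 array of every group, and 6 of 7 members had the same sign in both rows, Clec10a with -4.37 and -2.28.

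The other 5 members did not pass in Sirpa-positive cells. Clec4e had a log2 difference of 2.04 ± 0.48 (limma adjusted p = 0.0524), with both mature arrays above both immature arrays. It passed as a rise in 5 of 19 alternatives, quantile normalization, median scaling and the authors' deposited values among them. Clec4a3 (-0.84 ± 0.37), Clec4n (-0.80 ± 0.37) and Clec4b1 (-0.71 ± 0.30) had values below 0, and Clec4d stood at 0.35 ± 0.40 (limma adjusted p from 0.238 to 0.707 for these 4). Arrays of mature and immature cells did not overlap for 6 of 7 members, as for 51.1% of all genes.

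In Sirpa-negative cells, 2 of 7 members fell with maturation, against 7.25% of all genes called lower, and 0 rose, against 9.21%. Clec10a was 5.24-fold lower in mature cells (-2.39 ± 0.50, limma adjusted p = 0.0191). Clec4b1 was 4.45-fold lower by its brighter probe (-2.15 ± 0.30, limma adjusted p = 0.00420), while its dimmer probe was at background there. The Clec10a call ended without Sirpa-negative mature replicate 2 or Sirpa-negative immature replicate 4 or 7 (adjusted p between 0.0581 and 0.109). Clec4a1, Clec4a3, Clec4n, Clec4d and Clec4e were not well above background in either Sirpa-negative group (limma adjusted p from 0.482 to 0.998), so no direction can be given for them there. Arrays did not overlap for 2 of 7 members, as for 57% of all genes, and these 2, Clec10a (-2.88 and -1.90) and Clec4b1 (-1.67 and -2.64), had the same sign in both slide rows. Clec10a thus fell in both subsets, while its relative Mgl2, chosen after its values were seen, passed in neither (-0.48 ± 0.22 in Sirpa-positive and 0.73 ± 0.22 in Sirpa-negative cells; limma adjusted p = 0.279 and 0.0641).

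Thymocyte markers moved with maturation, with 5 of 16 higher in Sirpa-positive mature and 10 of 16 higher in Sirpa-negative mature cells, and 0 lower in either. Over all genes tested, 4.35% in Sirpa-positive and 9.21% in Sirpa-negative cells were called higher with maturation, and 2.54% and 7.25% lower. Their summed signal was 61.3 to 62.8 on Sirpa-positive mature against 42.9 to 50.1 on Sirpa-positive immature arrays, and 70.2 to 93.6 on Sirpa-negative mature against 32.5 to 44.0 on Sirpa-negative immature arrays. In Sirpa-positive cells, 3 of 11 monocyte and neutrophil markers and 4 of 13 type 2 dendritic cell markers fell with maturation and 0 rose. In Sirpa-negative cells, 2 of the 11 fell and 1 rose, and 3 of the 13 fell and 4 rose. The part of these lists in the lectin differences was not tested.

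Whether maturation acted differently in the 2 subsets was tested as the difference between the 2 maturation effects. It passed for 0 of 7 members and for 0% of all genes with limma, while 4 of the 7 members and 8.06% of all genes had an unadjusted p under 0.05. The estimates with an unadjusted p under 0.05 were -1.68 ± 0.39 for Clec4a1, 1.44 ± 0.42 for the brighter Clec4b1 probe, 2.04 ± 0.69 for Clec4e and -1.24 ± 0.52 for Clec4n (limma adjusted p = 0.214, 0.357, 0.462 and 0.616). Those of Clec10a (-0.93 ± 0.71), Clec4a3 (-0.99 ± 0.52) and Clec4d (0.15 ± 0.57) had larger p. A fall of a lectin in 1 subset only was therefore not shown.

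**Figure D2:**
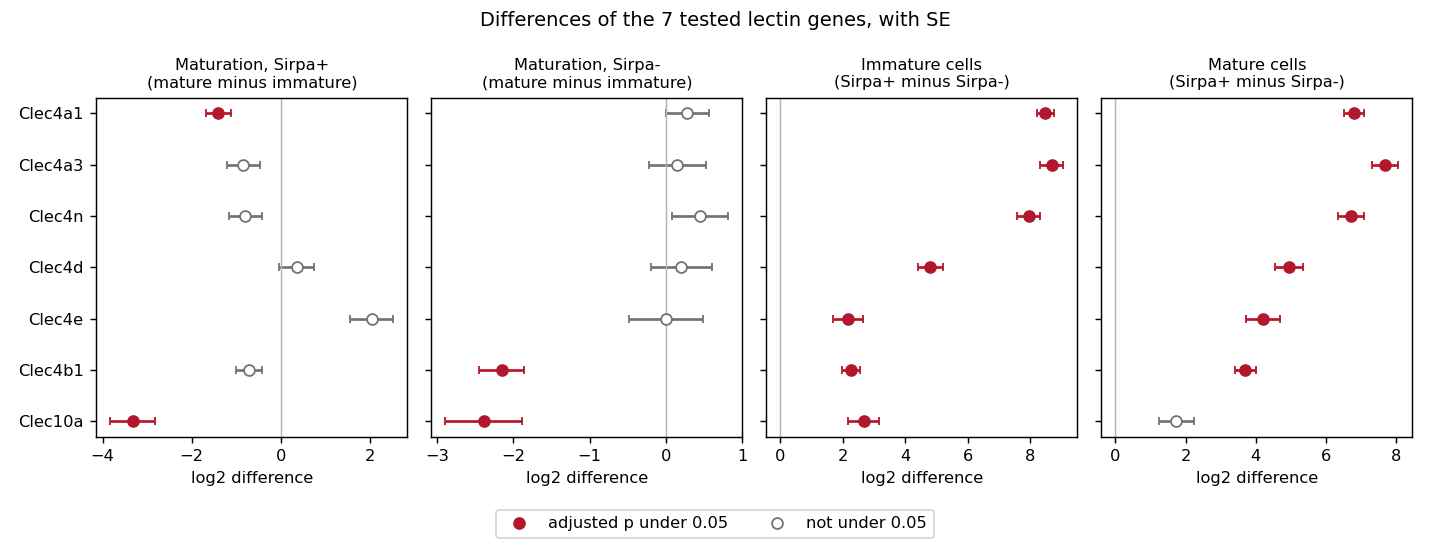
Log2 difference (x axis) with its SE for the 7 tested lectin genes (rows) in the 2 maturation comparisons, mature minus immature, and the 2 subset comparisons, Sirpa+ minus Sirpa-. Red points had a limma adjusted p under 0.05; hollow points did not. In the subset panels 7 and 6 of 7 points are red and to the right of 0; in each maturation panel 2 are red, both to the left.

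Clec4b1 had 2 kept probes, which gave different sizes and, for the difference between the maturation effects, opposite signs. The dimmer probe read -2.89 and -2.60 in Sirpa-positive mature and -0.68 and -1.12 in Sirpa-positive immature cells, and was not well above background on any (0) Sirpa-negative array. Tested singly, it gave a Sirpa-positive maturation difference of -1.84 ± 0.43 (limma adjusted p = 0.0519), where the brighter probe gave -0.71 ± 0.30, and neither passed. In Sirpa-negative cells the dimmer probe, at background, gave a maturation difference of 0.01 ± 0.43 (limma adjusted p = 0.992), and the brighter one -2.15 ± 0.30. With the mean of both probes, which includes the dimmer one at background, the Sirpa-negative maturation difference was -1.07 (limma adjusted p = 0.0772). The difference between the maturation effects was -1.85 ± 0.61 with the dimmer and 1.44 ± 0.42 with the brighter probe, and neither passed. In the subset comparisons the dimmer probe gave 4.86 in immature and 3.01 in mature cells, and the brighter one 2.26 and 3.70. Both probes passed in both, but the dimmer one passed the filter through Sirpa-positive groups alone, which set its direction. Its sizes rest on Sirpa-negative readings at background, so their order cannot be compared with that of the brighter probe.

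Close relatives can share probe signal, and this was not tested. Clec4b2, the near relative of Clec4b1, read -3.54 and -3.78 in Sirpa-positive mature and -2.05 and -2.68 in Sirpa-positive immature cells, against -0.92 and -1.16 in Sirpa-negative mature and 0.83 and 0.63 in Sirpa-negative immature cells. The subset difference thus ran opposite to that of Clec4b1, 8.55-fold lower in Sirpa-positive immature and 6.15-fold lower in Sirpa-positive mature cells (limma adjusted p = 0.000435 and 0.00167), where 1 of 2 arrays was above background. Clec4b2 fell with maturation (log2 -1.29 in Sirpa-positive and -1.77 in Sirpa-negative cells; limma adjusted p = 0.0326 and 0.00580).

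**Figure D3:**
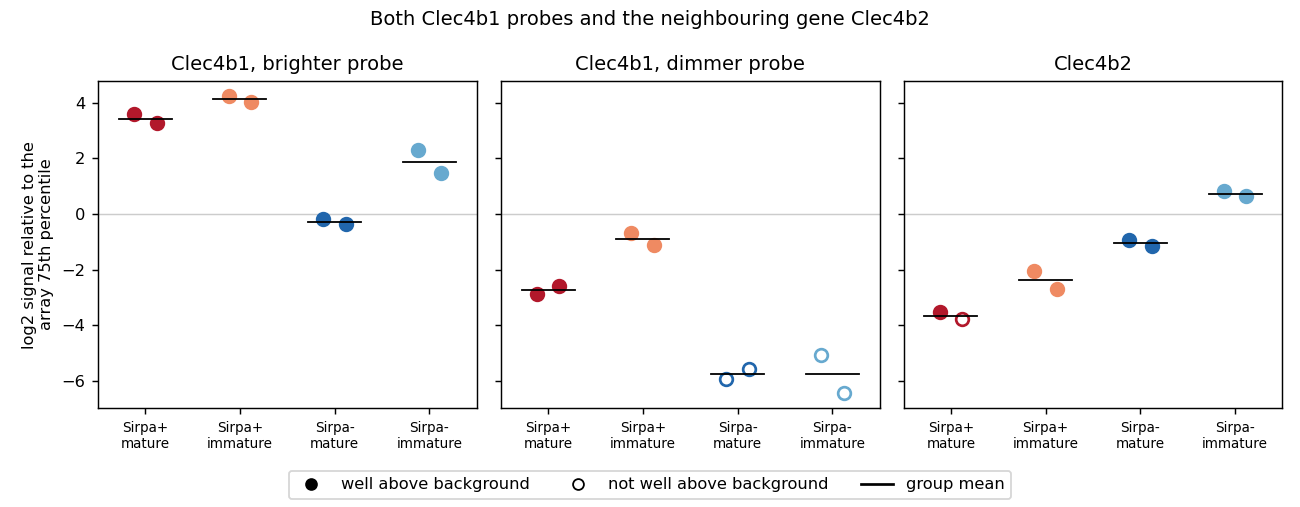
Log2 signal relative to the array's 75th percentile (y axis) of both Clec4b1 probes and of Clec4b2 on the 8 arrays, by group (x axis). Hollow points were not well above background, and lines are means of 2 arrays. Both Clec4b1 probes are higher in the Sirpa+ groups, and Clec4b2 is higher in the Sirpa- groups.

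Chromosomal order was set beside the subset differences, with non-member neighbours taken by position after their values were seen. From Clec4a1 to Clec4e the cluster runs Clec4a1, Clec4a3, Clec4a4, Clec4b1, Clec4a2, Clec4b2, Clec4n, Clec4d and Clec4e. Clec4a4 was above background on 0 Sirpa-negative arrays. It was higher in Sirpa-positive cells (log2 4.42 ± 0.42 in immature and 3.03 ± 0.42 in mature cells, limma adjusted p = 0.000652 and 0.00660). The fold was at least 4.31 in immature and at least 1.63 in mature cells. Of the 8 tested genes in this stretch, only Clec4b2 was lower in Sirpa-positive cells. Clec4a4, Clec4a1, Clec4a3, Clec4n, Clec4d and Clec4e passed the filter through Sirpa-positive groups alone, which set their direction. Only Clec4b1 and Clec4b2 were free to go either way, and they went opposite ways. In the second cluster, Clec12b, Clec1b, Clec9a and Clec1a lie between Clec12a and Clec7a, and Olr1 follows. Clec1b and Olr1 were higher in Sirpa-positive immature cells (log2 1.05 ± 0.24 and 2.18 ± 0.43, limma adjusted p = 0.0314 and 0.0183). They did not pass in mature cells, and Clec12b was not tested. Olr1 was above background on 0 Sirpa-negative arrays, so its difference in immature cells was at least 1.95-fold. Olr1 passed the filter through Sirpa-positive and Clec1a through Sirpa-negative groups alone, which set their direction. Clec9a, which encodes a receptor for the actin of dead cells, was 64.6-fold lower in Sirpa-positive immature and 55.1-fold lower in Sirpa-positive mature cells, where 1 of 2 arrays was above background. Clec1a was 51.0-fold lower in Sirpa-positive immature cells, with 1 of 2 arrays above background, and at least 12.8-fold lower in Sirpa-positive mature cells (limma adjusted p = 0.000300 and 0.000524).

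**Figure D4:**
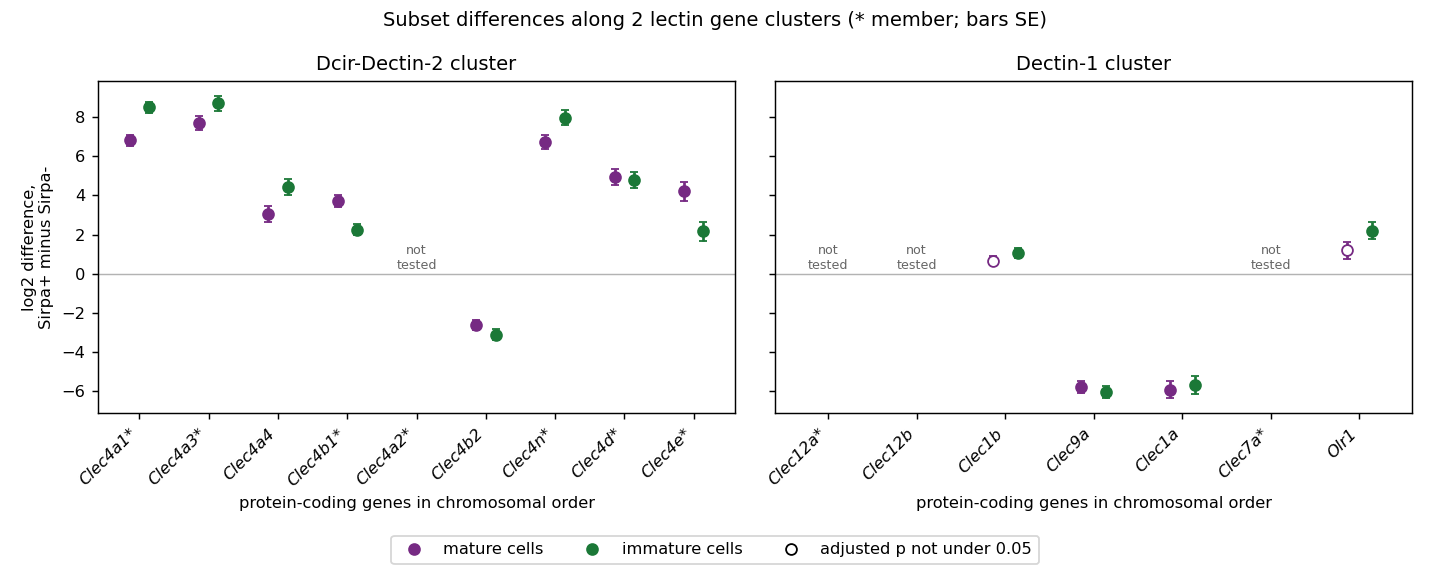
Subset difference (log2, Sirpa+ minus Sirpa-, with SE) of the genes of 2 lectin clusters on chromosome 6, placed in their order along the chromosome without distances. Purple points are mature cells, green points immature cells, hollow points did not pass, and asterisks mark members. Clec4b2, Clec9a and Clec1a lie below 0, and the other tested genes lie above it.

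Of 32 genes listed as relays of lectin receptors, 29 were tested. In immature cells 7 were higher and 0 lower in Sirpa-positive cells, with a median difference of 0.35 beside -0.11 over all genes. In mature cells 3 were higher and 0 lower, with a median of 0.10 beside -0.07. Over all genes tested, 7.24% in immature and 3.38% in mature cells were called higher, and 4.4% and 2.1% lower. Fcer1g, the gamma chain that the activating receptors need, read 6.76 and 6.94 in Sirpa-positive mature and 7.02 and 6.78 in Sirpa-positive immature cells, against 4.78 and 4.32 in Sirpa-negative mature and 3.68 and 3.13 in Sirpa-negative immature cells. It was well above the array's 75th percentile in all 4 groups and 11.2-fold higher in Sirpa-positive immature and 4.93-fold higher in Sirpa-positive mature cells (limma adjusted p = 0.000294 and 0.00330). Il1b, a cytokine made downstream, was 8.11-fold and 6.20-fold higher, and Src was 3.76-fold higher in immature cells.

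Syk, Card9 and Ptpn6 are given as the core of the pathway, picked after their values were seen. Syk did not pass (0.98 ± 0.26 in immature and 0.98 ± 0.26 in mature cells; limma adjusted p = 0.0546 and 0.0864). Card9 was 2.30-fold and Ptpn6 2.80-fold higher in Sirpa-positive immature cells, and neither passed in mature cells. With maturation, 2 of 29 rose and 1 fell in Sirpa-positive cells, against 4.35% and 2.54% of all genes tested. In Sirpa-negative cells 8 rose and 5 fell, against 9.21% and 7.25%. Nlrp3, a sensor of the inflammasome, was 2.68-fold lower in Sirpa-positive mature and 4.61-fold lower in Sirpa-negative mature cells. Rel, an NF-kB subunit, was 2.80-fold and 5.93-fold higher (1 of 2 Sirpa-negative immature arrays was above background), and Ikbkb 2.06-fold and 2.87-fold higher. In Sirpa-negative cells Src was 12.5-fold higher with maturation, and Lyn and Inpp5d were 1.98-fold and 1.96-fold lower.

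Of 35 other C-type lectin genes listed, 29 were tested. In Sirpa-positive cells, 17 were higher and 6 lower in immature cells, against 7.24% and 4.4% of all genes tested. In mature cells 5 were higher and 5 lower, against 3.38% and 2.1%. Of the higher ones in immature cells, Cd209c, Mrc1, Clec4a4, Clec5a, Olr1, Clec4g and Colec12 were above background on 0 Sirpa-negative immature arrays. In mature cells this held for Cd209a, Clec4a4 and Mrc1 on Sirpa-negative arrays, and for the lower Clec1a on Sirpa-positive arrays. Where a gene passed the filter through 1 subset alone, its direction was set, so these counts are a description and no test. The Cd209 relatives Cd209a, Cd209d and Cd209e were the 3 higher ones with the smallest p in both comparisons, and Clec9a was the lower one with the smallest p in both. With maturation 9 of the 29 fell and 1 rose in Sirpa-positive cells, against 2.54% and 4.35% of all genes tested. In Sirpa-negative cells 5 fell and 4 rose, against 7.25% and 9.21%. In Sirpa-positive cells Cd209a was 23.1-fold lower and Ly75, an endocytic receptor, 11.8-fold higher with maturation. In Sirpa-negative cells Cd209e was 8.14-fold lower, Clec2i 8.01-fold higher and Ly75 2.97-fold higher.

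Genes most like each member over the 8 arrays were sought among 13826 genes with a symbol, by Pearson correlation of log2 levels, as a description in which the 8 arrays form 4 clusters. Clec4a1 and Clec4n both had Cyp4f18 among their 2 closest genes (r = 0.998 and 0.997), with Prxl2b for Clec4a1 and Mgat4a for Clec4n. Clec4a3 was closest to Sirpb1b and to Apoe, a gene on the macrophage list (r = 0.998 each). The closest genes were Fcgr2b and Tcirg1 for Clec4b1, Nr1h3 and Cxcl10 for Clec4d, Inhba and Zfp503 for Clec4e, and Tnfrsf13c and Runx1 for Clec10a, with r between 0.968 and 0.996.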

How the data were processed

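RNA of 4 sorted groups was hybridised to 8 Agilent arrays. The deposited scanner files hold spot intensity, background-subtracted by Feature Extraction 10.7.3.1 per the file headers; the submitters' processing notes give version 10.5 and name limma, a conflict that remains. The table of processed values that the authors deposited is on a log2 scale and served as an alternative; their array medians lie between 5.99 and 6.01, and no centring or change of direction was seen.

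Computed here: outlier spots were set missing, signals were taken as log2 and centred on each array's 75th percentile, spots of a probe were averaged, and probes well above background on all their unflagged spots on both arrays of at least 1 group were kept (33673 of 55681). The 75th percentile ranged from 147 to 313 intensity units, and arrays of a group correlated at 0.979 to 0.987 over genes. Of the spots, 61.9% to 65.5% were well above background on arrays of slide row 1 and 52.9% to 57.9% on those of slide row 2. The part of the row in the counts of arrays above background was not tested. Accessions were named through a RefSeq table (GRCm38.p6), with 26582 probes named. The array header names mm9, so probes are given no coordinates; the promoter windows carry their own GRCm38.p6 coordinates from RefSeq. The kept probe with the highest mean stood for a gene. All 8 arrays entered a single limma fit (limma 3.58.1, R 4.3.3) with 4 group means; two-sided p-values were adjusted by Benjamini-Hochberg over 24133 genes and a threshold of 0.05. Precision is limited by the number of arrays.

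The members, lists and rules were chosen with earlier results of these data known, and the background rule for probes with several spots was set after results had been seen. The members were named in each comparison where they were tested, with up to 3 called genes per direction from the relay and other lectin lists, the 2 most alike genes per member, and Sirpa, Ccr7, Cd40 and Flt3 as label checks; others are marked where they appear. Cd40 was 4.46-fold and 8.22-fold higher in Sirpa-positive and Sirpa-negative mature than immature cells, and Flt3 2.48-fold lower in Sirpa-positive than Sirpa-negative immature cells. No 2 groups share a replicate number, and the labels give no pairing; the sets of title numbers, slide rows, other normalizations, filters and single left-out arrays were tried as alternatives.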

Additional observations from a re-analysis of the deposited data

How the results depend on the processing

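Over 35 results (7 members in 5 comparisons), 668 values under 20 alternative settings were computed, of which 613 kept direction and side of the threshold, 26 lost the threshold, 12 gained it and 17 changed sign. The sign changes were in differences that passed neither as reported nor under the alternative. For Sirpa-negative maturation they gave, with normexp and quantile normalization, -0.0058 for Clec4a1, -0.024 for Clec4a3 and 0.037 for Clec4e; with the authors' deposited values, -0.0087 for Clec4a1, -0.064 for Clec4a3, -0.0014 for Clec4d and 0.069 for Clec4e; and with single arrays left out, -0.38 to 0.67 for Clec4a3, -0.012 to 0.90 for Clec4n, -0.41 to 0.82 for Clec4d and -0.57 to 0.57 for Clec4e. For the difference between the maturation effects they gave -0.21 for Clec4b1 with the mean of its probes, and -0.47 to 0.77 for Clec4d with single arrays left out. The number of members called for Sirpa-positive maturation, 2 as reported, was 4 with the authors' deposited values, 3 with normexp and quantile normalization, 3 with median scaling, 0 without a filter on dim probes, 1 with probes above background on all arrays and 1 with slide row as a block, and 0 to 3 when single arrays were left out (0 without Sirpa-positive immature replicate 3 or 5, 1 without Sirpa-positive mature replicate 1 or 6). The count of members that rose was 1 with the authors' values, median scaling or quantile normalization, Clec4e in each. For Sirpa-negative maturation, 2 as reported, it was 1 without a filter, 1 with the mean of a gene's probes, and 1 to 2 when single arrays were left out. The filter on all arrays left 2 members to test, of which 2 passed in immature and 1 in mature cells; leaving out single arrays gave 5 to 7 and 6 to 7. Between immature subsets the count, 7 as reported, was 6 with the authors' deposited values and 6 with normexp and quantile normalization. It was 6 with trended and robust variances and 5 of 9 members tested without a filter. Between mature subsets the count, 6 as reported, was 7 with each of these settings except without a filter, where it was 6 of 9. The count for the difference between the maturation effects was 0 under all alternatives run. It could not be run with the compared arrays alone. With the title-number set as a replicate block, in which each set holds 1 array of every group but no label says what it marks, the counts were 2, 2, 7 and 7 for Sirpa-positive maturation, Sirpa-negative maturation, immature and mature cells. The differences between subsets passed in every alternative that tested them for Clec4a1, Clec4a3, Clec4n, Clec4d and Clec4b1, and for Clec4e in mature cells. Clec10a in mature cells passed in 5 of 20, that block included (limma adjusted p = 0.0278). Signals near background limit Clec4e, Clec4a2 and Clec12a. Clec4a1, Clec4a3, Clec4n, Clec4d and Clec4e passed the main filter through Sirpa-positive groups alone. Their passing between subsets was therefore tied to that filter and adds no independent support. The filter on all arrays did not test them. The cause of the changes between settings was not tested.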
